A study of Mus musculus with 6 samples.

Results

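Notch signalling in sorted cells of the mouse aorta was described through 10 genes, which are the 4 receptors Notch1, Notch2, Notch3 and Notch4, the ligands Jag1 and Dll4, and the targets Hey1, Hey2, Heyl and Hes1. They were chosen by name, and each was found once among the 24421 rows of the matrix. All 6 libraries came from mice on the 129S6/SvEv strain that were killed at 8 weeks of age and carried the CAG-Sun1/sfGFP tracer, a reporter that turns on a nuclear GFP after Cre recombination. The Cre was Mef2cSHF in the SHF group (secondary heart field, 3 libraries) and Wnt1-Cre2 in the CNC group (cardiac neural crest, 3 libraries), with no further allele or treatment named in either group. The column labels mark the libraries of both groups as WT, and they write AHF for the SHF group. Living GFP+ cells were sorted from the aortic root and ascending aorta, and their RNA was amplified by SmartSeq2 before sequencing. Each Cre marks descendants of an embryonic lineage and not a cell type, and the sort used GFP and viability alone. The study describes the 3 libraries of a group as biological replicates.

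Notch receptors are transmembrane proteins that are activated by Jagged or Delta-like ligands on a neighbouring cell. Binding leads to cleavage of the receptor, first by an ADAM metalloprotease and then by gamma-secretase, and the freed intracellular domain joins the DNA-binding protein RBPJ and Mastermind coactivators to turn on genes of the Hes and Hey families, which encode transcriptional repressors. In arteries, Notch3 is known as a receptor of smooth muscle cells and pericytes, Notch1, Notch4 and Dll4 as genes of arterial endothelium, and Jag1 as a ligand used between endothelium and smooth muscle and between neighbouring smooth muscle cells.

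Values are TPM, an estimated transcript level corrected for transcript length and scaled to the same total in each library, so that levels of different genes can be set side by side within a library. TPM keeps no record of sequencing depth, and the depth behind each value is unknown. A gene is given as listed at 0 and not as absent, because amplification of little RNA can miss a transcript. The number of rows above 0 ran from 9255 to 11858 per library. Xist was listed above 0 in SHF replicates 2 and 3 alone, and the Y-linked genes Ddx3y and Eif2s3y in SHF replicate 1 and the 3 CNC replicates, so sex was unevenly spread over the lineages. The part of sex in the values below was not tested. In each library the sum of 10 fibroblast genes, 44050 to 62793 TPM in SHF and 64022 to 70195 TPM in CNC, was above the sum of 10 smooth muscle genes, 1463 to 3076 TPM and 1297 to 1999 TPM. In such mixed samples, fewer cells of a type and less RNA per cell cannot be told apart.

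Promoter windows are shown for Hey2, a target, and for Notch2 and Jag1, the most abundant receptor and ligand, because their windows hold letters known to be bound by RBPJ and by Hes and Hey proteins. The windows run from 250 bases before to 50 bases after the start of the gene and were taken from RefSeq on GRCm38.p6, where 7 of the 10 genes were matched, without Hes1, Hey1 and Heyl. Capitals mark the matches, which were GTGGGAA or its other strand TTCCCAC for RBPJ, and CACGCG or its other strand CGCGTG for the class C site of Hes and Hey proteins. The 3 sequences are printed 5′ to 3′ on the strand of the gene, with Hey2 at chr10:30842734-30843033 on the minus strand, Notch2 at chr3:98013288-98013587 on the plus strand and Jag1 at chr2:137116471-137116770 on the minus strand.
Hey2: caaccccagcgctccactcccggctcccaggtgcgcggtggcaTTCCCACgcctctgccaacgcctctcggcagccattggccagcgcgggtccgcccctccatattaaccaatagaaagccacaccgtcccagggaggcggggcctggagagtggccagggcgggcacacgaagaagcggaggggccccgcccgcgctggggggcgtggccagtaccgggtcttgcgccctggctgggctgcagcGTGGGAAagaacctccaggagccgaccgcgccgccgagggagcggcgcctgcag
Notch2: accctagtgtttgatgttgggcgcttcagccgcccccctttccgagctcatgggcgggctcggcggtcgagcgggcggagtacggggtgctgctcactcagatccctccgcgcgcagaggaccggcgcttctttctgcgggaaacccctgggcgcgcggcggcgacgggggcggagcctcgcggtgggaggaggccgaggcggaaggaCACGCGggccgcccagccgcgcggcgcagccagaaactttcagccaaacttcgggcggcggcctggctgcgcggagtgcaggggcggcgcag
Jag1: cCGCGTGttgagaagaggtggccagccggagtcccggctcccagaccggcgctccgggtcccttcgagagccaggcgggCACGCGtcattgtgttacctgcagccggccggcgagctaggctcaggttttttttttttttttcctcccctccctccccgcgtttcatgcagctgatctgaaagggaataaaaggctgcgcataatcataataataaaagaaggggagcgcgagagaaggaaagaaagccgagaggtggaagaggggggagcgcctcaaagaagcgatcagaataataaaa

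The RBPJ letters were found in 1 of the 7 windows, that of Hey2, at both -207 and -4 from the start site (position of the first base), and in 6.38% of all 32851 windows. The class C letters were found in 3 of the 7 windows, those of Dll4, Jag1 and Notch2, and in 9.27% of all windows. In Notch2 the match began at -42, in Jag1 at -249 and -171, and in Dll4 at -195. The E-box CACGTG, which reads the same on both strands, was in 0 of the 7 windows and in 7.15% of all. These matches describe letters in a window, and no binding was measured here. Hey2, with its RBPJ letters, was listed at 0 in 3 of the 6 libraries, whereas Notch2 and Jag1 were above 0 in all 6.

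Among the receptors, Notch2 was the most abundant in every library, and no receptor passed the test between the lineages. Notch2 (chromosome 3, 98013527 to 98150361 on GRCm38, plus strand) had 52.3, 105 and 113 TPM in the SHF libraries and 43.8, 73.5 and 43.6 TPM in the CNC libraries, given here and below in the order of replicates 1 to 3. SHF replicate 1 lay within the range of the CNC libraries, and the other 2 SHF libraries lay above it. The means were 89.9 ± 32.9 TPM in SHF and 53.6 ± 17.2 TPM in CNC (SD, n = 3 each). The difference, SHF minus CNC on log2(TPM + 1), was 0.70 with a standard error of 0.53 and a 95% interval from -0.47 to 1.87, and its adjusted p was 0.888 by limma with Benjamini-Hochberg adjustment over 10185 genes. Within single libraries Notch2 ranked between 1383 and 3137 among all rows.

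Notch1, which is used by endothelial and many other cells, spanned a wide range. Notch1 (chromosome 2, 26457903 to 26516663, minus strand) was at 20.1, 9.31 and 2.16 TPM in the SHF libraries and at 1.01, 3.12 and 0.33 TPM in the CNC libraries. The highest value was in SHF replicate 1, and SHF replicate 3 fell below CNC replicate 2, so that the lineages overlapped. The means were 10.5 ± 9.05 TPM and 1.49 ± 1.45 TPM (SD, n = 3 each). The log2 difference was 1.99, or 1.10 with a pseudocount of 5 in place of 1. Its standard error was 1.22, its 95% interval ran from -0.70 to 4.67 and its adjusted p was 0.874 (limma, Benjamini-Hochberg).

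Notch3 was low in both lineages. Notch3 (chromosome 17, 32120820 to 32166852, minus strand) was at 1.93, 0.64 and 0.04 TPM in SHF and at 0.08, 2.76 and 3.88 TPM in CNC. SHF replicate 3 and CNC replicate 1 had the lowest values, and the lineages overlapped over most of their range. The means were 0.87 ± 0.966 TPM and 2.24 ± 1.95 TPM (SD, n = 3 each), with a log2 difference of -0.66, a standard error of 0.93, a 95% interval from -2.70 to 1.38 and an adjusted p of 0.924 (limma, Benjamini-Hochberg). The difference was -0.30 without SHF replicate 3 and -1.33 without CNC replicate 1. Genes that mark smooth muscle and mural cells were mostly above it, since 8 of 10 smooth muscle genes and 5 of 6 mural genes exceeded Notch3 in all 6 libraries, the exceptions being Des, Myocd and Mcam. The 2 most abundant smooth muscle genes were Myl9, a myosin light chain, at 466 to 987 TPM, and Acta2, smooth muscle actin, at 363 to 956 TPM. Of the mural genes, Rgs5, a regulator of G protein signalling found in pericytes, was at 66.2 to 311 TPM and Pdgfrb, a platelet-derived growth factor receptor, at 75.8 to 222 TPM. The mural sum was 289 to 625 TPM in SHF and 585 to 697 TPM in CNC.

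Notch4 (chromosome 17, 34564268 to 34588503, plus strand), an endothelial receptor, was at 4.75 TPM in SHF replicate 1 and listed at 0 in the other 5 libraries. It was below the filter of at least 1 TPM in at least 3 libraries and was not tested.

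The order of the 4 receptors was compared within libraries by an exact two-sided sign-flip permutation test on log2(TPM + 1), whose smallest p with 6 libraries is 0.0312, adjusted over 13 pairs of genes. Notch2 was above Notch1 in 6 of 6 libraries with a mean gap of 3.93 (SD 1.43) and above Notch3 in 6 of 6 with a gap of 4.97 (SD 1.32; exact p = 0.0312, adjusted p = 0.0406 for each). The 13 pairs include some whose order a listing at 0 already fixes in part, and these lower the adjusted p. The adjusted p of 0.0406 is therefore not read as passing the threshold. Notch2 and Notch1 were also above Notch4 in 6 of 6 libraries, which the listing of Notch4 at 0 in 5 of them already fixes there. Notch1 was above Notch3 in 5 of 6 libraries (gap 1.04, SD 1.76, exact p = 0.219, adjusted p = 0.259), so these neighbours in the order did not differ beyond their spread. Notch3 was above Notch4 in 5 of 6 libraries, with SHF replicate 1 the exception. Those 5 are the libraries where Notch4 was listed at 0, which already fixes the order there.

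As a share of the summed TPM of the 4 receptors, Notch2 made up 66.1%, 91.3% and 98.1% in SHF and 97.6%, 92.6% and 91.2% in CNC. SHF replicate 1 stood apart, with 25.5% Notch1 and 6.01% Notch4, whereas Notch1 was at 8.12% or less of the sum in the other libraries. The sum itself was 79.1 to 115 TPM in SHF and 44.9 to 79.4 TPM in CNC, and the lineages overlapped by a narrow margin.

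**Figure D1:**
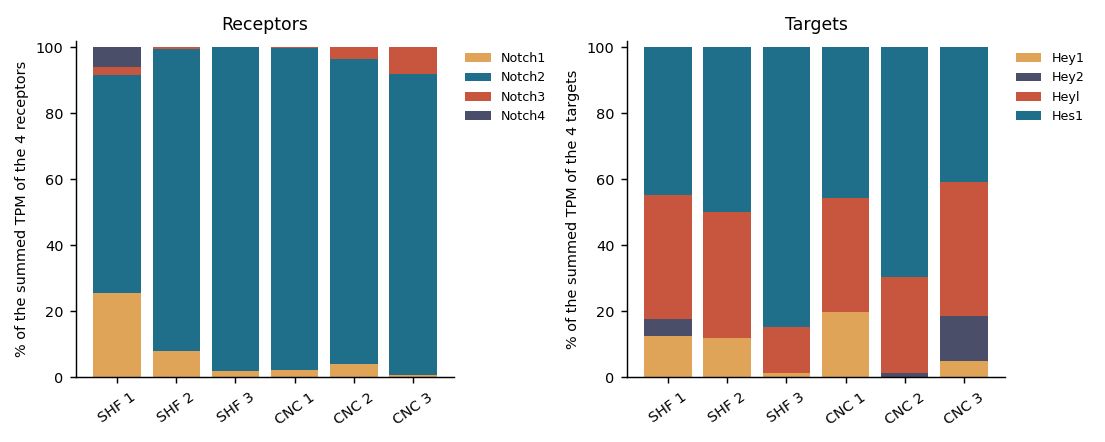
Stacked bars give, for each library on the horizontal axis, the share in percent of the summed TPM of the 4 receptors (left) and of the 4 targets (right) taken by each gene. Notch2 fills between 66.1% and 98.1% of the receptor bars, and Hes1 between 40.7% and 84.8% of the target bars.

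Of the ligands, Jag1 was the member whose libraries did not overlap between the lineages, at higher values in CNC. Jag1 (chromosome 2, 137081456 to 137116644, minus strand), a Jagged ligand, was at 25.2, 37.2 and 37.5 TPM in SHF and at 94.6, 55.7 and 40.2 TPM in CNC. All 3 CNC values were above all 3 SHF values, with 40.2 against 37.5 TPM at the nearest point, and CNC replicate 1 was the highest. The means were 33.3 ± 7.01 TPM and 63.5 ± 28.0 TPM (SD, n = 3 each), a 1.91-fold higher mean in CNC. The log2 difference, SHF minus CNC, was -0.85 with a standard error of 0.60 and a 95% interval from -2.18 to 0.48, and it did not pass the threshold (adjusted p = 0.887, limma with Benjamini-Hochberg adjustment). The difference was -0.52 without CNC replicate 1 and -1.13 without CNC replicate 3. A two-sided exact permutation test gave p = 0.1, the smallest that 3 libraries against 3 can give. Of all genes tested, 5.68% had every CNC library above every SHF library and 11.8% were free of overlap in either direction, so 1 member of 8 tested, or 12.5%, is near the background. Of the 10 fibroblast genes, 5 had the same pattern as Jag1, with every CNC library above every SHF library, namely Col1a1 (means 4314 and 10631 TPM in SHF and CNC), Col1a2, Col3a1, Pi16 and Clec3b. The other 5, Dcn, Lum, Pdgfra, Dpt and Gsn, overlapped between the lineages, and 0 of the 10 passed the limma test. The part of fibroblasts in the Jag1 values was not tested.

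Dll4 (chromosome 2, 119325784 to 119335962, plus strand), a Delta-like ligand of arterial endothelium, was at 4.76 TPM in SHF replicate 1 and listed at 0 in the other 5 libraries, and it was not tested. Jag1 was above Dll4 in 6 of 6 libraries, which the listing of Dll4 at 0 in 5 of them already fixes there. The other ligands of the pathway were low, and 0 of 5 passed the filter. The most abundant, Dll3, a divergent Delta-like ligand, was at 12.5 TPM in SHF replicate 3 and listed at 0 elsewhere. Jag2, Dll1, Dlk1 and Dlk2 stayed at or below 2.93 TPM in each library.

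**Figure D2:**
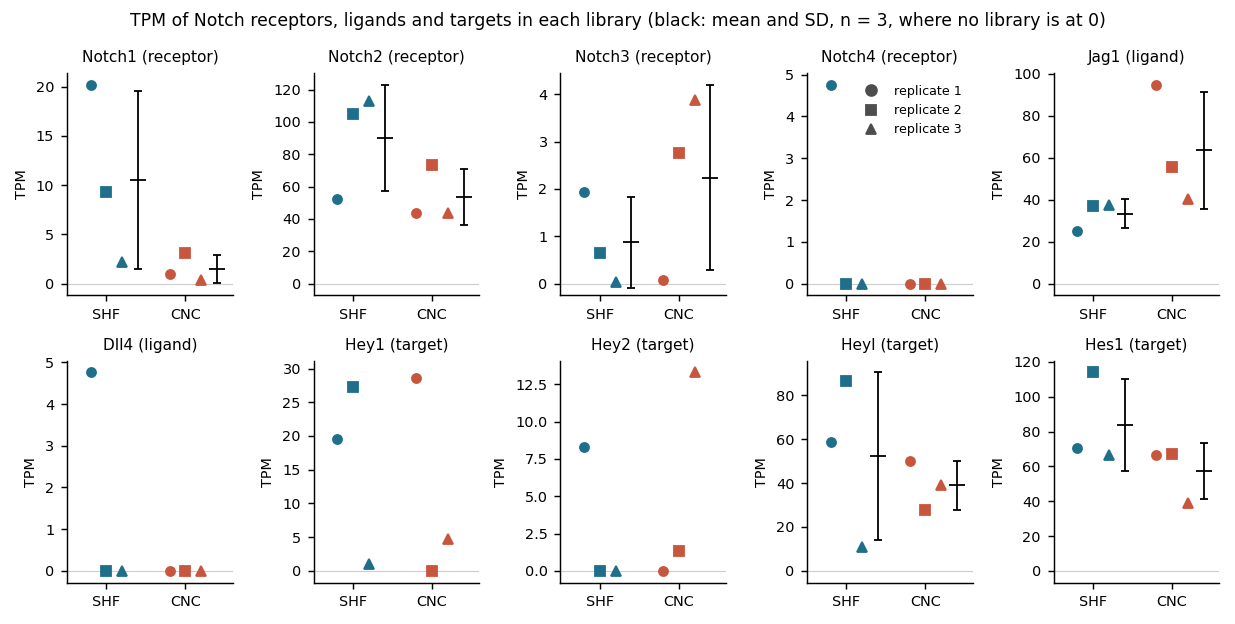
Each panel gives the TPM of 1 gene on a linear axis for the SHF libraries (blue) and CNC libraries (red), with symbols for replicates 1, 2 and 3 and black bars for the mean and SD (n = 3) where no library is listed at 0. Jag1 is the panel without overlap, with CNC libraries at 40.2 to 94.6 TPM and SHF libraries at 25.2 to 37.5 TPM, while Notch4 and Dll4 have a single library above 0.

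Notch1, Notch4 and Dll4 had their highest values in the same library, SHF replicate 1. The sum of 12 endothelial genes was lowest in that library among the SHF libraries, at 94.3 TPM against 591 and 552 TPM in SHF replicates 2 and 3, and was 62.6, 65.8 and 42.1 TPM in the CNC libraries. The single genes did not all follow the sum. In SHF replicate 1, Cldn5, Egfl7 and Sox17 were listed at 0 and Tie1 and Vwf were at 0.3 and 0.04 TPM, whereas Cdh5 was at 5.94 TPM, Erg at 6.7 TPM, Tek at 31.6 TPM, Flt1 at 4.77 TPM and Kdr at 1.9 TPM, and the last 3 were listed at 0 in SHF replicate 2. In all 3 CNC libraries Cdh5, the cadherin of endothelial junctions, was listed at 0, as were Tie1, Emcn, Vwf, Cldn5 and Sox17. Others were above 0 in CNC, with the angiopoietin receptor gene Tek at 36.7, 23.1 and 1.11 TPM and the VEGF receptor gene Flt1 at 1.75, 4.88 and 4.45 TPM. Kdr was at 14.4 TPM in CNC replicate 1, and Egfl7 at 1.98 TPM and Erg at 14.8 TPM in CNC replicate 3, the highest Erg value of the 6 libraries. The 2 most abundant endothelial genes were Pecam1, an adhesion molecule, at 31.5, 148 and 142 TPM in SHF and 9.72, 37.9 and 19.8 TPM in CNC, and Emcn, a sialomucin, at 11.6, 220 and 47.6 TPM in SHF. Cdh5, Emcn, Tie1 and Vwf were above 0 in all 3 SHF libraries and listed at 0 in all 3 CNC libraries, and Cdh5 and Emcn passed the filter through the SHF libraries alone, so no count of these genes is read against all genes. The part of endothelial cells in the receptor and ligand values was not tested.

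**Figure D3:**
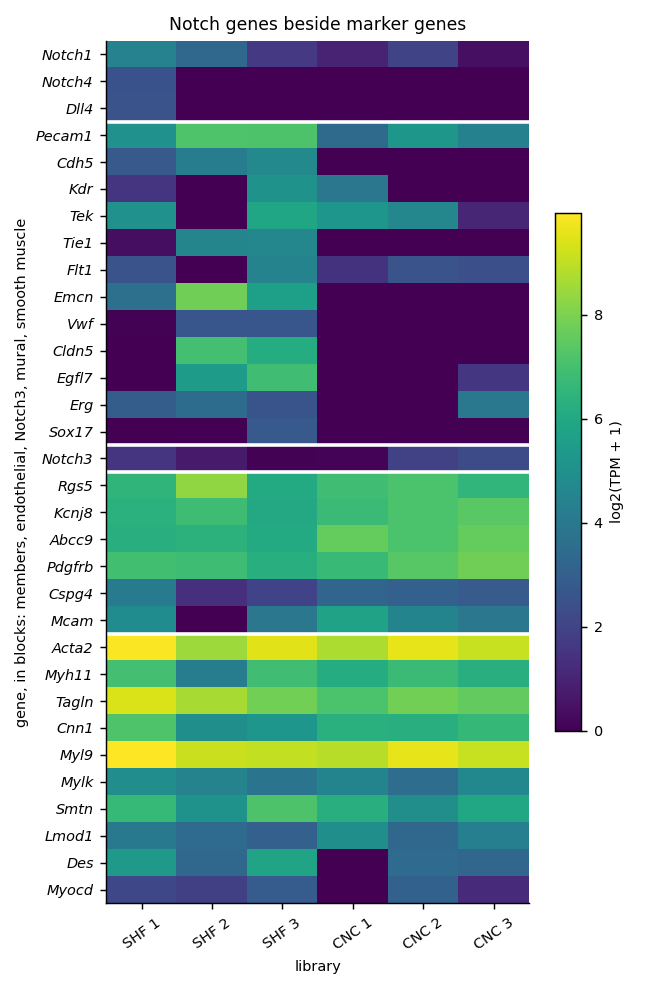
Colour gives log2(TPM + 1) for each gene (row) in each library (column), with white lines between blocks of Notch1, Notch4 and Dll4, 12 endothelial genes, Notch3, 6 mural genes and 10 smooth muscle genes. Notch4 and Dll4 are above 0 in SHF replicate 1 alone, where the endothelial genes sum to 94.3 TPM, and Notch3 at 0.04 to 3.88 TPM is below most mural and smooth muscle rows.

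Among the targets, Hes1 and Heyl were above 0 in each library, whereas Hey1 and Hey2 were listed at 0 in some, and no target passed the test between the lineages. Hes1 (chromosome 16, 30064384 to 30067796, plus strand), which encodes a basic helix-loop-helix repressor that also responds to other signals, was at 70.7, 114 and 66.5 TPM in SHF and at 66.3, 67.1 and 39.0 TPM in CNC. SHF replicate 2 was the highest and CNC replicate 3 the lowest, while the other 4 libraries lay between 66.3 and 70.7 TPM. The means were 83.7 ± 26.3 TPM and 57.5 ± 16.0 TPM (SD, n = 3 each), with a log2 difference of 0.53, a standard error of 0.51, a 95% interval from -0.59 to 1.66 and an adjusted p of 0.896 (limma, Benjamini-Hochberg). The difference was 0.28 without CNC replicate 3 and 0.29 without SHF replicate 2. Hes1 is also an early-response gene, and the sum of 8 genes of the response to tissue dissociation was 4657 TPM in SHF replicate 2, where Hes1 was highest, and 5320 to 8913 TPM in the other 5 libraries. The most abundant were Fos at 1188 to 2504 TPM and Junb at 1057 to 2360 TPM, both immediate early transcription factors. The heat shock gene Hspa1a of the same list was highest in SHF replicate 2, at 73.4 TPM against 31.7 to 57.5 TPM in the other libraries. The part of dissociation in the Hes1 values was not tested.

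Heyl (chromosome 4, 123233556 to 123249875, plus strand), a Hey family repressor known from vascular mural cells, was at 59.0, 86.6 and 10.9 TPM in SHF and at 50.3, 28.0 and 38.9 TPM in CNC. The SHF libraries held both the highest and the lowest value, and the CNC libraries lay between them. The means were 52.2 ± 38.3 TPM and 39.1 ± 11.2 TPM (SD, n = 3 each). The log2 difference was 0.03 with a standard error of 0.81 and a 95% interval from -1.75 to 1.80 (adjusted p = 0.998, limma with Benjamini-Hochberg adjustment), and its sign turned under other scalings, at -0.049 after median-of-ratios rescaling and -0.071 after quantile normalization. Leaving out a library moved it further, to -0.54 without SHF replicate 2 and 0.89 without SHF replicate 3. The sum of the 6 mural genes was 408, 625 and 289 TPM in SHF and 585, 609 and 697 TPM in CNC. SHF replicate 3 had the lowest Heyl, Notch3 and mural sum, but elsewhere the order differed, as SHF replicate 1 had the second highest Heyl with the second lowest mural sum, and CNC replicate 3 had the highest mural sum. The part of mural cells in these values was not tested.

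Hey1 (chromosome 3, 8663359 to 8667256, minus strand) was at 19.6, 27.2 and 0.98 TPM in SHF and at 28.6, 0 and 4.69 TPM in CNC. Values near 20 TPM or above and values below 5 TPM occurred in both lineages. The log2 difference was 0.92 with a standard error of 1.61 and a 95% interval from -2.63 to 4.47 (adjusted p = 0.938, limma with Benjamini-Hochberg adjustment), and without CNC replicate 2, the library listed at 0, it was -0.31. Hey2 (chromosome 10, 30832359 to 30842801, minus strand), which like Hey1 encodes a repressor of the developing heart and arteries, was at 8.29, 0 and 0 TPM in SHF and at 0, 1.33 and 13.3 TPM in CNC. It was listed at 0 in libraries of both lineages. Its log2 difference was -0.61 with a standard error of 1.28 and a 95% interval from -3.43 to 2.21 (adjusted p = 0.950, limma with Benjamini-Hochberg adjustment). It was -0.08 without SHF replicate 2 or 3, both listed at 0, and -1.46 without CNC replicate 1, also listed at 0. Without SHF replicate 1, CNC replicate 2 or CNC replicate 3, Hey2 fell below the filter and has no value.

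Within libraries the targets were ordered Hes1, Heyl, Hey1 and Hey2. Hes1 was above Heyl in 6 of 6 libraries with a mean log2 gap of 0.80 (SD 0.93), although in CNC replicate 3 the values were 39.03 and 38.94 TPM. Heyl was above Hey1 in 6 of 6 with a gap of 2.37 (SD 1.42), and Heyl over Hey2, Hes1 over Hey1 and Hes1 over Hey2 also held in 6 of 6. Where Hey2 (3 libraries) or Hey1 (1 library) was listed at 0 the order was already fixed, so no p is given for these pairs. For Hes1 over Heyl the exact sign-flip permutation p was 0.0312 and the adjusted p 0.0406. The pairs with an order already fixed in part by a listing at 0 were counted in that adjustment and lower it. It is therefore not read as passing the threshold. Hey1 was above Hey2 in 4 of 6 libraries and they did not differ beyond their spread (gap 1.55, SD 2.77, exact p = 0.344, adjusted p = 0.344). Hes1 made up 44.9%, 50.0% and 84.8% of the summed target TPM in SHF and 45.6%, 69.6% and 40.7% in CNC. The target sum was 158, 228 and 78.4 TPM in SHF and 145, 96.4 and 96.0 TPM in CNC, and the lineages overlapped.

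Over the 10 genes together, 8 passed the filter and 0 passed the limma test, with adjusted p-values from 0.874 to 0.998. Of all 10185 genes tested, 0% passed at an adjusted p under 0.05 and 5.86% had an unadjusted p under 0.05, and of the 8 Notch genes 0 had an unadjusted p under 0.05. Of the 8 differences, 5 were positive and 3 negative, with a median of 0.28 against 0.02 over all genes tested, and the positive sign of Heyl did not hold under other scalings. The study's methods filter for lineage-exclusive transcripts at 5 TPM in the expressing lineage, which was read here as more than 5 TPM in its 3 libraries and 0 in the other 3. By that reading 0 of the 10 genes were exclusive. Of all 24421 rows 0.139% were, so the count of 0 says little about the members. Of the 10, 4 were at 1 TPM or more in all libraries, namely Notch2, Jag1, Heyl and Hes1, and 6 were above 0 in all.

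**Figure D4:**
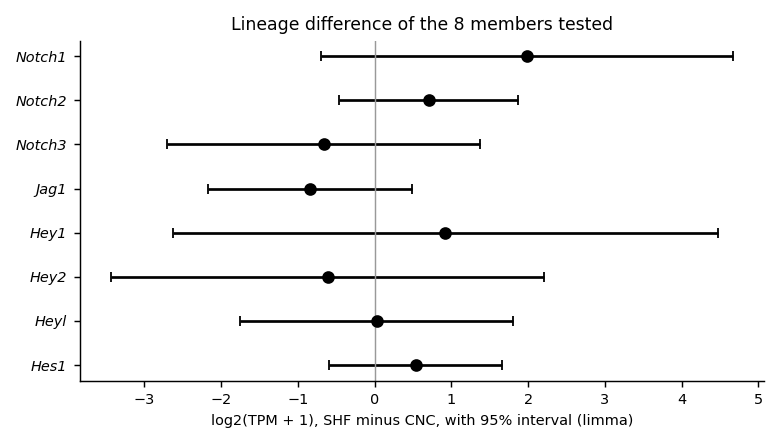
Points give the difference in log2(TPM + 1), SHF minus CNC, and bars its 95% interval from limma for the 8 genes tested (n = 3 libraries each). All 8 intervals include 0, from the narrowest for Hes1, -0.59 to 1.66, to the widest for Hey1, -2.63 to 4.47.

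The exons of some of these genes overlap those of others in GENCODE M21, and the library protocol does not keep strand, so that reads there cannot be told apart. This holds for Notch1 with 0610009E02Rik and Gm13568, for Notch3 with the antisense gene Gm17276, for Notch2 with Gm42820 and for Dll4 with Gm14207, the last of which was listed at 0 in all 6 libraries.

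The 52 other genes of the pathway were described by role, and 37 of them passed the filter. None of the 37 passed the limma test (smallest adjusted p 0.688, that of Aph1b), 3 had an unadjusted p under 0.05 (8.11%, against 5.86% of all genes), and 6 had lineages that did not overlap (16.2%, against 11.8%). Of the 6, 3 were higher in SHF, as were 6.11% of all genes tested, and 3 higher in CNC. Aph1b is in both counts and passed the filter through its CNC libraries alone, which already makes it higher there without overlap. Both shares are raised by it, so neither is read as above that of all genes. Of the 37 differences 16 were positive and 21 negative, with a median of -0.06. Dlk2, Mfng, Nrarp, Hes5 and Hes7 were listed at 0 in all 6 libraries.

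The enzymes that add sugars to the receptors were led by Poglut1, which glucosylates their EGF repeats. Poglut1 was at 45.0, 36.0 and 5.67 TPM in SHF and at 151, 55.0 and 87.3 TPM in CNC. All CNC values were above all SHF values, with a log2 difference of -2.02 (SE 0.81, unadjusted p = 0.0297, adjusted p = 0.802, limma with Benjamini-Hochberg adjustment). The other 3 of 4 tested genes of this role overlapped between lineages. Of the genes for ligand endocytosis, the ubiquitin ligase gene Mib2 was the most abundant, at 10.5, 66.2 and 11.2 TPM in SHF and 58.9, 32.8 and 3.93 TPM in CNC, and these ranges overlapped.

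The genes for receptor cleavage were the most evenly present, with 8 of 10 at 1 TPM or more in every library. Adam10, the metalloprotease that makes the first ligand-dependent cut, was at 43.5, 142 and 54.2 TPM in SHF and at 10.2, 41.9 and 20.5 TPM in CNC. All SHF values were above all CNC values, by 43.5 against 41.9 TPM at the nearest point, with a log2 difference of 1.69 (SE 0.75, unadjusted p = 0.0449, adjusted p = 0.825, limma with Benjamini-Hochberg adjustment). Aph1b, a gamma-secretase subunit, was at 0.3, 0 and 0.51 TPM in SHF and at 18.9, 45.6 and 3.84 TPM in CNC, a log2 difference of -3.72. It passed the filter through its CNC libraries alone, so its difference is given as a description and not as a test. Its near-identical paralog Aph1c was at 0.71 TPM in SHF replicate 3 and listed at 0 elsewhere, and how reads were split between them is uncertain. The most abundant gene of this role, the gamma-secretase subunit Psenen, was at 90.2, 79.2 and 352 TPM in SHF and at 94.2, 183 and 114 TPM in CNC. Its lineages overlapped, and its exons overlap those of U2af1l4 on the opposite strand.

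In the nuclear complex that activates the targets, 5 of 6 genes were tested and none was free of overlap. Maml2, a Mastermind coactivator and the most abundant of them, was at 54.1, 79.2 and 75.7 TPM in SHF and at 32.9, 92.5 and 86.0 TPM in CNC. Of 7 corepressor genes tested, the most abundant was the histone deacetylase gene Hdac1, at 52.4, 57.4 and 42.2 TPM in SHF and 22.2, 96.8 and 61.5 TPM in CNC.

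All 9 genes of receptor turnover were tested. The related adaptors Numb and Numbl, which antagonise Notch, were both free of overlap, with values on opposite sides. Numb was at 44.6, 46.0 and 42.2 TPM in SHF and at 0.07, 33.5 and 30.2 TPM in CNC (log2 difference 2.11, SE 1.27, adjusted p = 0.874, limma with Benjamini-Hochberg adjustment). The size of this difference leans on CNC replicate 1, whose 0.07 TPM lay far below the other CNC values. Numbl was at 0.37, 1.85 and 12.0 TPM in SHF and at 15.5, 13.8 and 13.5 TPM in CNC (log2 difference -2.04, SE 1.30, adjusted p = 0.874). Dtx3, a Deltex ubiquitin ligase gene and the most abundant of this role, was at 59.3 to 101 TPM in SHF and 79.4 to 98.4 TPM in CNC. Of the 5 genes listed as other targets 2 were tested, and whether they respond to Notch in these cells was not. Hes6, a Hes family gene and the most abundant of them, was at 4.94, 0 and 32.4 TPM in SHF and at 32.0, 14.1 and 13.9 TPM in CNC, and the lineages overlapped.

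**Figure D5:**
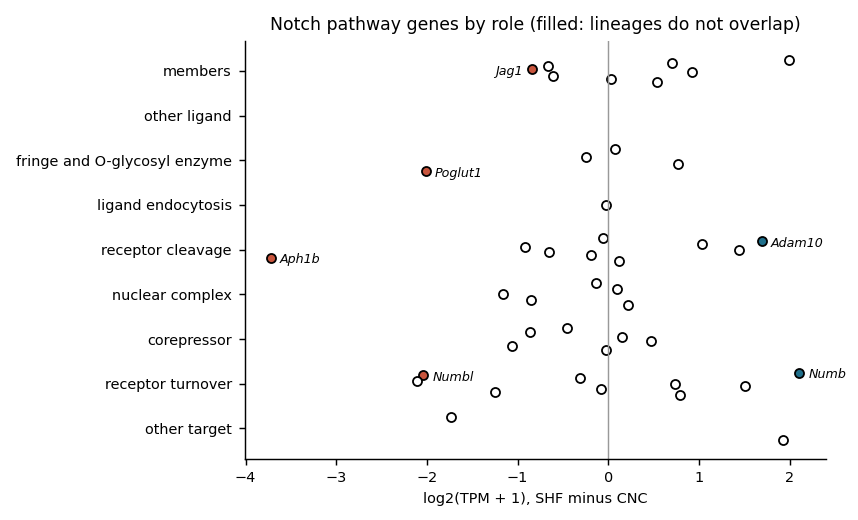
Points give the difference in log2(TPM + 1), SHF minus CNC, of tested genes by role, spread vertically within a role for legibility, with filled points for genes whose lineages do not overlap (blue, SHF higher; red, CNC higher). The filled points of the other pathway genes run from Aph1b at -3.72 to Numb at 2.11, and none of the genes drawn passed the test.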

How the data were processed

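Bulk RNA of sorted GFP+ cells was analysed in 3 SHF and 3 CNC libraries. The authors ran RSEM 1.2.25 with Bowtie2 as aligner on mm10, per the labels, and deposited TPM values in 1 matrix of 24421 rows. The annotation behind these values is not given in the sources used here. Columns were matched to libraries through the library codes in the labels, and 0 columns of other samples were present. TPM holds no counts, so precision rests on the spread between 3 libraries of a lineage.

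From TPM, limma 3.58.1 in R 4.3.3 (lmFit, eBayes with a trend) was fitted to log2(TPM + 1) with the lineage as the single term. It took the 10185 genes that reached 1 TPM in 3 or more libraries, and p-values were adjusted by Benjamini-Hochberg over all of them (threshold 0.05). The added 1 makes differences of low genes smaller than their fold in TPM. Fit and adjustment were tested on simulated data. Pairs of genes were compared within libraries by exact sign-flip permutation tests. The members and gene lists were chosen with earlier results of these data known. Genes named were the 10 members, the most abundant pathway gene of each role, pathway genes whose lineages do not overlap, the 2 most abundant genes of each marker list and, for Notch3, Notch4, Jag1, Hes1 and Heyl where tested, the 3 genes most alike with a mean of at least 10 TPM. Other genes named, among them the other endothelial genes, Hspa1a and 5 fibroblast genes, were chosen after their values were seen. Positions are from GENCODE M21 on GRCm38, and promoters from RefSeq on GRCm38.p6.

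Replicate numbers were checked for pairing by the correlation, across genes, of deviations from the group means between same-numbered libraries, which was -0.01, -0.00 and -0.01. Alternatives were pseudocounts of 0.1 and 5, no filter, a filter of 5 TPM, quantile normalization, median-of-ratios rescaling, library weights, eBayes with the trend off, a replicate block, leaving out single libraries, and lower or higher limits for an exclusive transcript. Python 3.11.15, pandas 2.3.3 and matplotlib 3.10.9 were used. Single-cell and imaging data were not analysed here, and the values of some genes are not reported here, in the text or the plots.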

Additional observations from a re-analysis of the deposited data

How the results depend on the processing

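The 10 genes gave 0 calls by limma under every alternative run, and the lowest adjusted p of a member was 0.651, for Notch2 without SHF replicate 1. Over all genes, 1 passed with a pseudocount of 5 and 0 passed otherwise. Of 111 differences of single members under an alternative, 105 kept their direction. The 6 that reversed were Hey1 at -0.31 without CNC replicate 2, and Heyl at -0.049 after median-of-ratios rescaling, -0.071 after quantile normalization, -0.54 without SHF replicate 2, -0.27 with SHF replicate 1 left out and -0.19 with CNC replicate 2 left out. The cause was not tested. Heyl ran from -0.54 to 0.89 with a library left out, and Hey1 from -0.31 to 2.13. Jag1 stayed between -1.13 and -0.52 over all alternatives (adjusted p 0.806 to 0.976, limma). Notch1 ran from 1.10 with a pseudocount of 5 to 2.73 without SHF replicate 3. Hey2 ran from -1.46 to -0.08 and Notch3 from -1.33 to -0.30, and Hes1 from 0.28 to 0.68, with a library left out. Hey2 and Notch3 fell below the filter without SHF replicate 1, CNC replicate 2 or CNC replicate 3. Their ranges and directions are therefore unknown for those cases. Leaving out each library in turn gave 1 to 4 members free of overlap, where 20.4% to 26.1% of all genes tested were free of overlap against 11.8% with 6 libraries. Jag1 was among the members in each case, which its lack of overlap with 6 libraries already fixes. Besides Jag1 these were Notch2 without SHF replicate 1, Notch1, Heyl and Hes1 without SHF replicate 3, Notch3 without CNC replicate 1, and Notch1, Notch2 and Hes1 without CNC replicate 2. The last case was 4 of 6 members tested (66.7%) against 21.3% of all genes tested, and that without SHF replicate 3 was 4 of 8 (50%) against 21.5%. The cause was not tested. No member was exclusive to a lineage under any threshold or library left out.

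With the replicate number as a block, 0 members passed, the lowest adjusted p of a member was 0.887, and 549 genes had an unadjusted p under 0.05 against 597 without it, so the block changed no call. The numbers did not pair the libraries by the correlation of their deviations, and no library was matched across lineages. Depth is unknown, amplification can leave a transcript listed at 0, and sex and endothelial genes were uneven over the libraries.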

Other observations

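The genes whose log2(TPM + 1) followed a member most closely over the 6 libraries were taken from 7365 tested genes whose mean reached 10 TPM, as a description without a test. With 6 libraries many genes come near a member by number alone, and genes with Pearson's r over 0.9 numbered 50 for Notch3, 24 for Jag1, 69 for Hes1 and 148 for Heyl. For Notch3 the closest were Chmp2b (r = 0.989), Kdm3a (r = 0.986) and 5430416N02Rik (r = 0.974). For Jag1 they were Spc24 (r = 0.967), Fndc1 (r = 0.965) and Pdlim2 (r = 0.965), with Fndc1 at 62.3, 109 and 91.6 TPM in SHF and 234, 185 and 116 TPM in CNC. For Hes1 they were Hspa2 (r = 0.978), Jkamp (r = 0.972) and Arl6ip5 (r = 0.967), and for Heyl Higd1a (r = 0.992), Ccdc124 (r = 0.989) and Ttc17 (r = 0.988). Notch4 was not tested and has no such genes.

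Markers of other cell types were low beside those of fibroblasts, whose most abundant genes were Gsn at 13900 to 31392 TPM, an actin-severing protein, and Dcn at 11604 to 14863 TPM, the proteoglycan decorin. The sum of 8 leukocyte genes was 0 to 26.9 TPM in SHF and 7.96 to 84.7 TPM in CNC, with Lyz2 at up to 58.9 TPM and Cd68 at up to 26.9 TPM, and the pan-leukocyte gene Ptprc was listed at 0 in all 6 libraries. The sum of 8 cardiomyocyte genes was 99.2 to 134 TPM in SHF and 5.81 to 63.9 TPM in CNC, with Tnnt2 at up to 87.4 TPM and Myl4 at up to 26.1 TPM. The sum of 7 Schwann cell genes was 17.9 to 82.3 TPM in SHF and 21.4 to 120 TPM in CNC, with Cnp at up to 55.8 TPM. The sum of 5 melanocyte genes was 22.3 to 35.1 TPM in SHF and 10.3 to 23.1 TPM in CNC, with Tyr at up to 24.0 TPM and Mitf at up to 14.4 TPM, and Dct, Pmel and Mlana were listed at 0 throughout. Ddx3y was at up to 61.3 TPM and Eif2s3y at up to 111 TPM. The part of these cells in the Notch values was not tested.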
